A study of Microtus ochrogaster and Microtus pennsylvanicus and Peromyscus californicus with 10 samples.

Results

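Brain RNA of voles (genus Microtus) was compared with that of Peromyscus mice, using 4 of the 10 libraries of a study on monogamy across vertebrates. The comparison takes every library whose species belongs to either genus. The vole libraries came from Microtus ochrogaster (prairie vole) and Microtus pennsylvanicus (meadow vole), and the mouse libraries from Peromyscus californicus (California mouse) and Peromyscus maniculatus (North American deer mouse). All were made from fore- and midbrain of reproductive males, with 3 animals pooled per library, so the species is the replicate and there are 2 a side. The labels give no age and name no treatment. In each genus 1 species is known as monogamous (M. ochrogaster, P. californicus) and 1 as nonmonogamous (M. pennsylvanicus, P. maniculatus). This assignment comes from general knowledge of the species, since the labels name species only, and mating system was a block in the comparison.

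Voles and Peromyscus mice are both cricetid rodents, but of separate lineages within that family. Each genus holds species that form lasting pair bonds with care by the father and species that do not, which is why both are used to study social attachment. Work on pair bonds in voles has centred on receptors for oxytocin, vasopressin and dopamine in the forebrain. A genus contrast asks how far brain RNA levels follow ancestry when mating system is balanced.

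Measurements are reads assigned to protein IDs with the prefix ENSRNOP. The files do not pair these IDs with gene names, and 0 of the 19750 IDs listed in the rodent tables were matched in the gene table used here. Gene lists for nonapeptide, dopamine, steroid and cell type genes could therefore not be applied, the labelled brain tissue could not be checked against its markers, and no sequence is printed. IDs are described by number and level, and few are named.

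The libraries differed in depth. The deposited RPM scale rested on 75649532 to 101971826 reads in 3 libraries and on 274693175 in M. ochrogaster, which also listed the most IDs (18547, against 13167 to 14200). Every listed ID had at least 1 read, and the floor of the tables ran from 1 read in P. californicus to 36 in M. ochrogaster. The 9375 IDs listed in all 4 tables held 73.8% to 86.9% of the listed counts of each library.

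No ID was called different between the genera by edgeR, although single IDs differed by more than 100-fold with close agreement between species of a genus. Of the 9375 IDs tested, 0 (a share of 0%) passed edgeR's quasi-likelihood test with mating system as block after Benjamini-Hochberg adjustment, with 0.899 as the lowest adjusted p. Without adjustment 395 IDs (4.21%) had p under 0.05, where chance alone gives 469. Of these, 174 were higher in voles and 221 in Peromyscus mice. limma-voom also called 0 IDs. DESeq2's Wald test called 537 of the 9375 IDs, of which 235 were higher in voles and 302 in Peromyscus mice. Whether IDs were called thus depended on the test. With 1 library left out, and with it the block, 0 IDs were called in each of the 4 fits, and 846 had an unadjusted p under 0.05 without M. ochrogaster and 1239 without M. pennsylvanicus. The fit leaves 1 residual degree of freedom and the biological coefficient of variation was 0.83, so the absence of calls does not show that levels were alike. In RNA of whole tissue, a difference in the number of cells of a type and one in RNA per cell cannot be told apart.

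Large differences between the genera were found in both directions. The mean log2 CPM, the count scaled by library size and put on a log scale, differed by 2-fold or more at 1997 IDs higher in voles (21.3%) and 2049 higher in Peromyscus mice (21.9%). At 8-fold or more there were 400 (4.27%) and 450 (4.80%) IDs, and at 32-fold or more 39 (0.416%) and 63 (0.672%). The median difference over all IDs was 0.02 on the log2 scale, which the TMM scaling holds near 0. With upper-quartile scaling this median was 0.18, and the 2-fold counts became 2276 higher in voles and 1838 higher in Peromyscus mice, so which genus had more such IDs depended on the scaling. With TMM scaling and without M. ochrogaster they were 1812 and 2055. Without M. pennsylvanicus they were 2544 and 2106, so the order also depended on the vole library kept. They were 2132 and 2325 without P. californicus and 1958 and 2313 without P. maniculatus.

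The split between directions also differed with abundance. The IDs were split into tertiles of mean level, with 3125 IDs each. In the lowest tertile, 1174 were 2-fold or more higher in voles and 673 in Peromyscus mice. In the middle and highest tertiles the order was the reverse, with 542 against 871 and 281 against 505. Without M. ochrogaster the lowest tertile, still set by the mean over 4 libraries, had 943 IDs higher in voles and 962 in Peromyscus mice, an alternative chosen after seeing the data. The median log2 difference in the lowest tertile was 0.75 between M. ochrogaster and P. californicus and 0.94 between M. ochrogaster and P. maniculatus. For M. pennsylvanicus it was 0.12 against P. maniculatus and near 0 against P. californicus. M. ochrogaster was also above M. pennsylvanicus there, by a median of 0.85. The part of its greater depth in these differences was not tested.

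Many IDs separated the genera without overlap, mostly by small margins. Both voles were above both Peromyscus mice at 2021 IDs (21.6%) and below both at 1721 (18.4%), which together are 39.9% of the IDs tested. The gap between the nearest libraries of the genera had a median of 0.46 on the log2 scale where voles were higher and 0.48 where Peromyscus mice were higher. It reached 2-fold at 510 IDs higher in voles (5.44%) and 468 higher in Peromyscus mice (4.99%), and 8-fold at 61 IDs higher in voles (0.651%) and 89 higher in Peromyscus mice (0.949%). At the remaining IDs the highest pair of libraries was a mixed one, and each of the 4 mixed pairs was highest at 1268 to 1554 IDs (13.5% to 16.6%). In a random order of libraries each pair would be highest equally often, so non-overlap would be common without any genus difference. With upper-quartile scaling the non-overlapping IDs numbered 2430 and 1424, and the 8-fold gaps 75 and 72, so the latter no longer favoured Peromyscus mice. Without M. ochrogaster, where a single vole library has to lie above or below both Peromyscus mice, the non-overlapping IDs numbered 3289 and 3270 and the 8-fold gaps 145 and 533. The 8-fold gaps were 286 and 484 without M. pennsylvanicus. They were 391 and 217 without P. californicus and 396 and 200 without P. maniculatus, so their order depended on which genus kept a single library.

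The difference between genera was set against the spread within them. It exceeded both within-genus differences at 2317 IDs (24.7%), of which 1324 (14.1%) were higher in voles and 993 (10.6%) in Peromyscus mice. In 3313 IDs (35.3%) the species of each genus lay within 2-fold of each other. Among them 311 were 2-fold or more higher in voles and 246 in Peromyscus mice, together 16.8%. At 8-fold or more, 33 were higher in voles and 40 in Peromyscus mice. All 4 libraries lay within 2-fold of each other at 2114 of these IDs, and the median size of the genus difference was 0.40 on the log2 scale.

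The ID with the widest gap of all was ENSRNOP00000006607, which was singled out after its values were seen. The prairie vole had 466 RPM and the meadow vole 555, against 0.0471 in the California mouse and 0.441 in the deer mouse. Both voles were high and both Peromyscus mice near the bottom of the range, where the values rest on 4 and 45 reads. edgeR gave a log2 fold change of 11.65 ± 1.53 (unadjusted p = 0.00577, adjusted p = 0.899). Errors of fold changes are approximate SEs throughout, computed as the absolute log2 fold change over the square root of F from the quasi-likelihood test.

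Among IDs with at least 50 RPM in both libraries of the higher genus and 10 counts in every library, ENSRNOP00000061003 had the widest gap towards voles. Its level was 199.6 RPM in the prairie vole and 137 in the meadow vole, against 1.45 in the California mouse and 1.29 in the deer mouse. The groups did not overlap, and the nearest libraries were 98.6-fold apart. The voles differed from each other by 0.45 on the log2 scale and the Peromyscus mice by 0.09. The log2 fold change was 6.91 ± 0.63 (adjusted p = 0.899 in edgeR). The 10 IDs ranked highest this way had 68.6 to 441 RPM in voles and 0.659 to 51.6 RPM in Peromyscus mice, with gaps of 2.79 to 6.62 on the log2 scale.

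Towards Peromyscus mice the gaps of the 10 highest ranked IDs were wider, at 5.87 to 7.49 on the log2 scale. ENSRNOP00000059649 ranked highest. Its level was 227 RPM in the California mouse and 219 in the deer mouse, against 0.724 in the prairie vole and 1.11 in the meadow vole. The Peromyscus libraries were nearly equal and the nearest vole library lay 179-fold below them. Its log2 fold change was -7.96 ± 0.63 (adjusted p = 0.899 in edgeR).

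ENSRNOP00000011307 followed, with 264 RPM in the California mouse and 229 in the deer mouse, against 1.49 in the prairie vole and 0.714 in the meadow vole. Its log2 fold change was -7.90 ± 0.71 (adjusted p = 0.899 in edgeR). The Peromyscus values were again close, differing by 0.05 on the log2 scale, and the vole values by 0.95. Over all 10 IDs, Peromyscus mice had 55.2 to 900.1 RPM and voles 0.159 to 6.91 RPM. IDs were ranked by this contrast, so their separation is a description. The sources used here do not say how reads matching several IDs were assigned, so levels of IDs that share reads are uncertain.

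**Figure D1:**
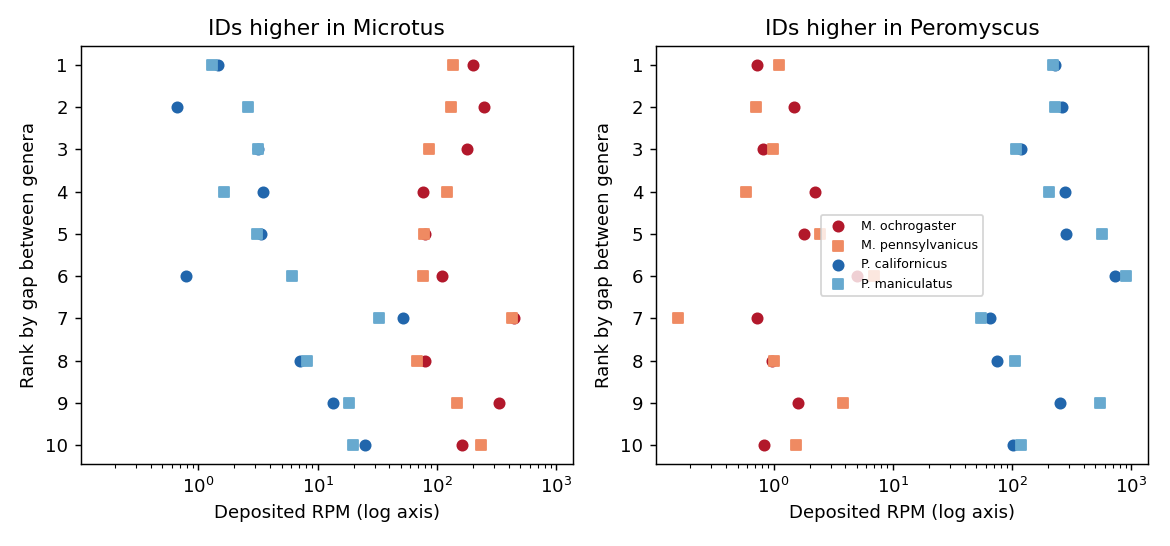
Deposited RPM (log axis) of 10 IDs per direction, ranked from the top by the gap between genera, with 1 point per library (circles monogamous, squares nonmonogamous species). Only IDs with at least 50 RPM in both libraries of the higher genus and 10 counts in every library were ranked, which leaves out ENSRNOP00000006607. The 10 IDs higher in Peromyscus have gaps of 5.87 to 7.49 on the log2 scale and the 10 higher in Microtus 2.79 to 6.62.

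Because the design is balanced, the genus difference can be measured separately in each mating system, from libraries that share none. The difference between the monogamous species (M. ochrogaster minus P. californicus) and that between the nonmonogamous species (M. pennsylvanicus minus P. maniculatus) had the same sign at 5238 of 9375 IDs (55.9%). Across IDs, which are not independent replicates, they correlated at r = 0.08 (Spearman's rho 0.12). The other way of pairing the species across genera gave the same sign at 54.0% and r = 0.09. The agreement in sign was 52.1% in the lowest tertile of mean abundance, 55.8% in the middle and 59.7% in the highest.

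Among the 9375 IDs, a 2-fold difference in both mating systems was found at 771 higher in voles and 729 higher in Peromyscus mice. Another 1072 differed by 2-fold in opposite directions. Of the latter, 639 were above P. californicus in M. ochrogaster but below P. maniculatus in M. pennsylvanicus, and 433 the reverse. At 32-fold or more, 7 IDs were higher in voles in both mating systems, 23 were higher in Peromyscus mice in both, and 17 were opposite. The monogamous species differed by 2-fold or more at 50.4% of IDs and the nonmonogamous at 44.7%.

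**Figure D2:**
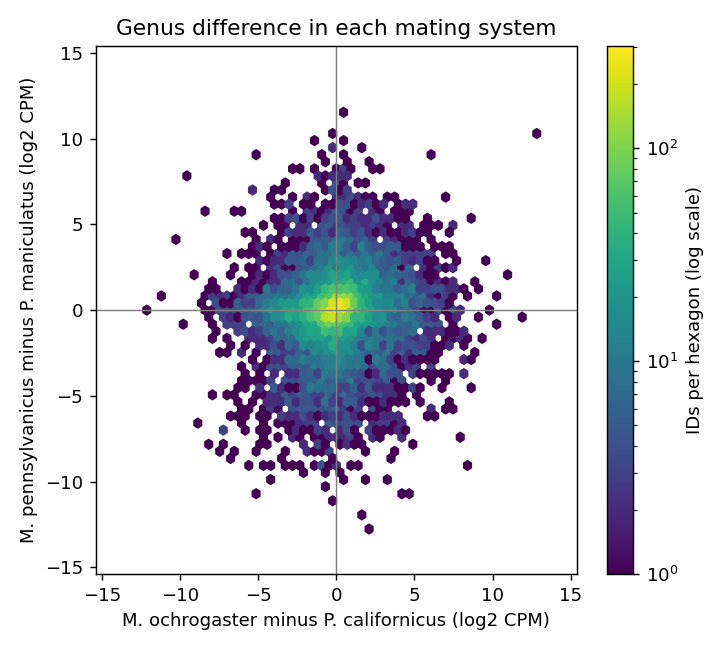
Genus difference of each ID in the monogamous species (horizontal axis, log2 CPM) and in the nonmonogamous species (vertical axis, log2 CPM), with colour for the number of IDs per hexagon on a log scale. The cloud is nearly round (r = 0.08), and the isolated point at the upper right is ENSRNOP00000006607.

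Genus was the contrast with the largest share of the variance of log2 CPM over the IDs, at 37.0%, and the share was 35.5% in the lowest, 39.4% in the middle and 37.0% in the highest tertile of mean abundance. In each tertile it exceeded the shares of mating system (31.1%, 30.3% and 33.4%) and of the remaining contrast (33.4%, 30.3% and 29.6%). With 4 libraries these 3 contrasts hold the whole variance. Over all IDs mating system held 31.3% and the remaining contrast 31.7%, so the split was not far from even.

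Distances between single libraries did not sort by genus throughout. The closest libraries were P. californicus and P. maniculatus, with a median absolute difference of 0.67 on the log2 scale. Next came M. pennsylvanicus with P. californicus (0.79) and with P. maniculatus (0.84), both closer than the voles were to each other (0.96). M. ochrogaster was 1.01 from P. californicus and 1.11 from P. maniculatus. In the highest tertile the Peromyscus pair was again the closest (0.37), and the vole pair (0.58) again lay farther apart than M. pennsylvanicus from P. californicus (0.48) and from P. maniculatus (0.46).

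**Figure D3:**
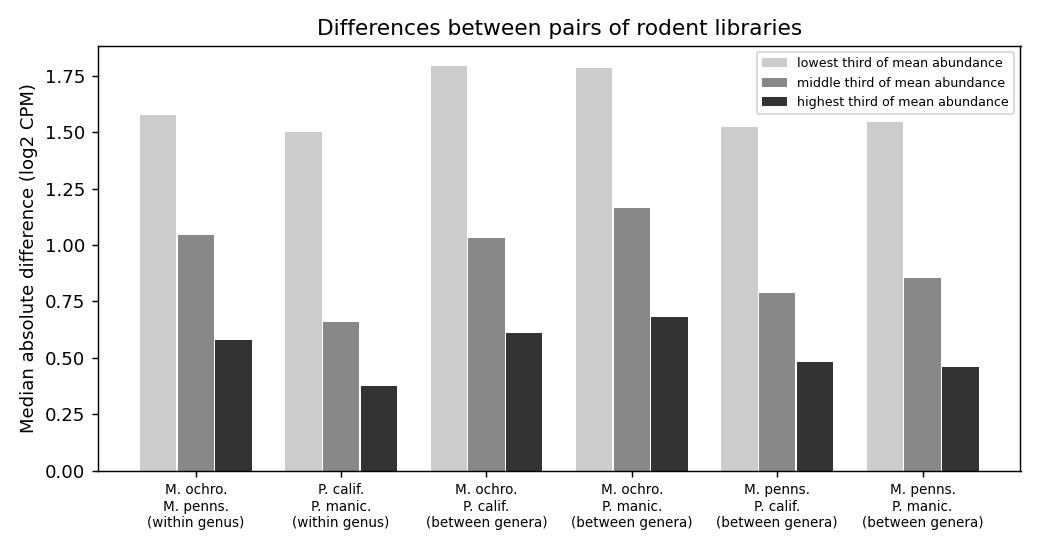
Median absolute difference in log2 CPM between each pair of rodent libraries, by tertile of mean abundance (3125 IDs each). In the highest tertile the Peromyscus pair is lowest at 0.37, and the vole pair at 0.58 lies above both pairs of M. pennsylvanicus with a Peromyscus library.

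Separation without overlap was found at 42.3% of the IDs in the highest tertile of mean abundance, against 39.9% in the middle and 37.5% in the lowest. The 10 shared IDs with the highest mean level are described next, and they do not stand for their tertile. Of these, 1 had both voles above both Peromyscus mice and 0 the reverse, where 39.9% of all IDs tested had no overlap. In 9 the genus difference had opposite signs in the monogamous and nonmonogamous species, where 55.9% of all IDs tested had the same sign. ENSRNOP00000039048 was highest, with 33990 RPM in the prairie vole, 29579 in the meadow vole, 24369 in the California mouse and 41837 in the deer mouse. The Peromyscus libraries held its lowest and its highest value, and the log2 fold change was -0.02 ± 0.62 (adjusted p = 0.998 in edgeR).

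The second most abundant ID was the one without overlap, with 17963 RPM in the prairie and 45691 in the meadow vole, against 4325 in the California mouse and 13085 in the deer mouse. Its log2 fold change was 1.92 ± 0.51 (unadjusted p = 0.0354, adjusted p = 0.899 in edgeR). ENSRNOP00000058593 was the most even of the 10, with 3767, 3671, 2724 and 3584 RPM in the same order of species, a 1.38-fold range. ENSRNOP00000046414 was the most uneven, with 34.03 RPM in the prairie vole and 23965 in the meadow vole, against 11201 in the California mouse and 8841 in the deer mouse. There M. ochrogaster alone was low, and the other vole was above both Peromyscus mice.

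**Figure D4:**
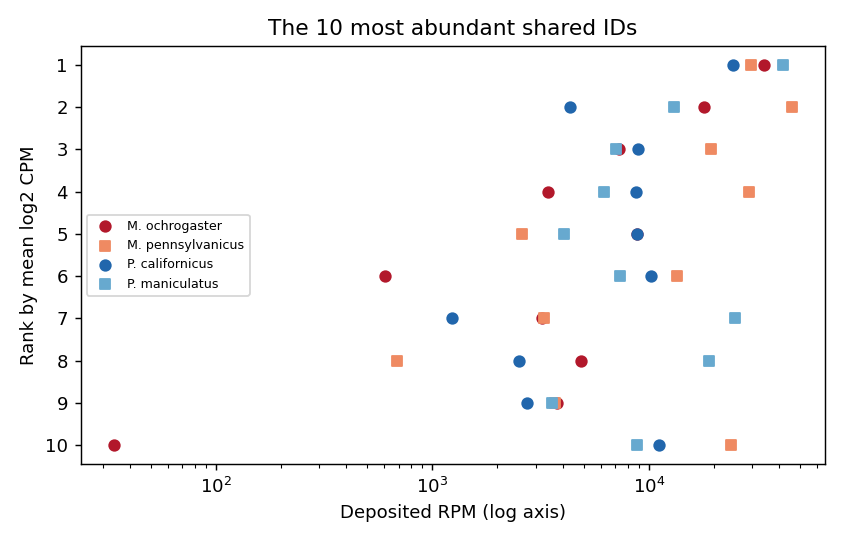
Deposited RPM (log axis) of the 10 shared IDs with the highest mean log2 CPM, with 1 point per library (circles monogamous, squares nonmonogamous species). Of the 10 IDs, 1 has no overlap between genera, against 39.9% of all IDs tested, and the range of a single ID runs from 1.38-fold to 704-fold.

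IDs listed in both tables of a genus and in neither table of the other were counted separately, since an unlisted ID has no value. There were 1073 such IDs for voles, 8.14% of the 13188 IDs that both vole tables list, and 137 for Peromyscus mice, 1.23% of 11102. The vole number was tied to the M. ochrogaster table. This table also shared 1068 IDs with P. maniculatus alone and 752 with P. californicus alone, whereas M. pennsylvanicus shared 98 and 92 with these species alone. Without M. ochrogaster, 1321 IDs were listed for M. pennsylvanicus and neither Peromyscus mouse, and 1512 for both Peromyscus mice and not M. pennsylvanicus. With any other library left out, the counts were between 2127 and 3237 for voles and between 304 and 383 for Peromyscus mice. Leaving out a library drops a condition, so both counts can only rise by construction. At 10 RPM or more in both libraries, 75 IDs remained for voles and 44 for Peromyscus mice. The mixed pairs of M. ochrogaster with P. californicus and with P. maniculatus held 70 and 68. Those of M. pennsylvanicus with P. californicus and with P. maniculatus held 16 and 8.

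Some IDs listed for 1 genus only were abundant. ENSRNOP00000004692 had 414 RPM in the prairie vole and 1136 in the meadow vole, and ENSRNOP00000038248 had 471 and 279. ENSRNOP00000016567 had 378 RPM in the California mouse and 314 in the deer mouse, and ENSRNOP00000050938 had 285 and 260.4. Each was thus well above the lowest RPM listed in the tables that lack it (0.0118 and 0.0588 RPM in the Peromyscus tables, 0.131 and 0.0925 in the vole tables). The species of a genus lay within 2-fold of each other at 72 of the 137 IDs listed only for Peromyscus mice and at 356 of the 1073 listed only for voles.

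**Figure D5:**
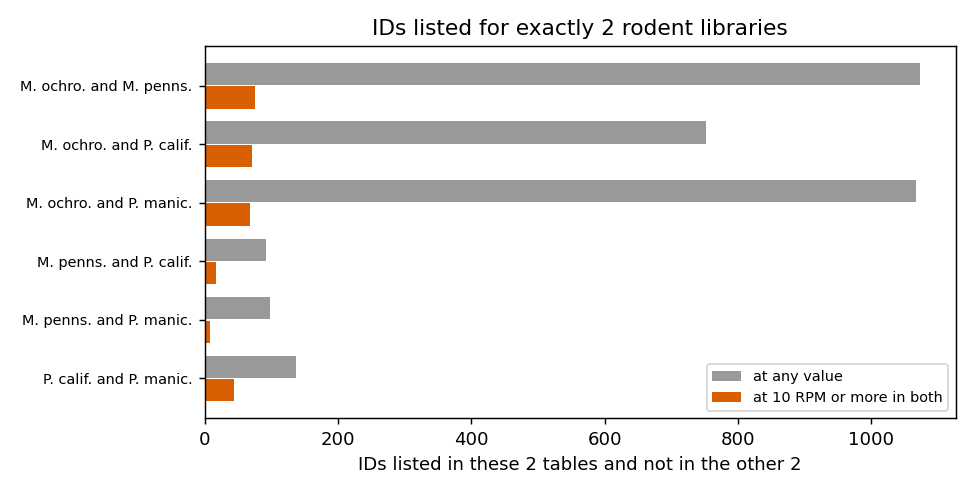
Number of IDs listed in exactly 2 of the 4 rodent tables, by the pair of tables, at any value (grey) and at 10 RPM or more in both (orange). The 3 pairs with M. ochrogaster hold 752 to 1073 IDs and the 3 pairs without it 92 to 137.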

How the data were processed

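RNA of pooled fore- and midbrain was sequenced, 1 library per species. The labels give total RNA and a small RNA kit, and the design text speaks of messenger RNA. The submitters' processing notes name the trimmer Trimmomatic, the aligner BWA and SAMtools. Their versions, settings and reference are not stated in those notes. Per the file headers, the deposited tables hold raw read counts, without normalization, and RPM. The RPM deposited by the authors equals the count divided by 1 constant per library, and listed IDs hold 93.8% to 95.6% of that constant.

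IDs listed in all 4 rodent tables were tested on counts with edgeR 4.0.16 in R 4.3.3 (TMM, filterByExpr, quasi-likelihood test, mating system as block, Benjamini-Hochberg at 0.05). filterByExpr removed none of the 9375 IDs. Log2 CPM used a prior count of 2. Differences are Microtus minus Peromyscus. Alternatives included DESeq2 1.42.0 and limma-voom (limma 3.58.1). Counts were also simulated for 9375 IDs with the observed coefficient of variation. There the genus test called 0% of 4-fold, 6% of 16-fold, 38% of 64-fold and 90% of 256-fold changes. Every simulated ID had the same coefficient of variation and no difference between mating systems, unlike the real IDs. These shares therefore do not give the power for the real data, where ENSRNOP00000006607 was not called at a log2 fold change of 11.65.

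Members, lists and tests were chosen with earlier results of these data known. The rule for named IDs took the 10 widest gaps per direction among IDs past the RPM and count limits given above. It also took the 5 highest IDs listed for 1 genus only and the 10 most abundant. Because IDs have no gene names, few of each are printed. The fit left 1 residual degree of freedom beside genus and mating system. P-values and approximate SEs therefore rest also on the spread that the quasi-likelihood fit shares across IDs. Spread within a genus that follows mating system alike in both genera is taken up by the block, so they do not measure it. The 6 bird, frog and cichlid libraries use other IDs and were not used.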

Additional observations from a re-analysis of the deposited data

Results flagged for a closer look

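In 3 of the abundant IDs named above the genus difference had opposite signs in the monogamous and the nonmonogamous species. The difference between these effects was not tested. Opposite signs were common, since only 55.9% of all IDs tested had the same sign, and 9 of the 10 most abundant IDs had opposite ones. ENSRNOP00000046414 had a log2 difference, Microtus minus Peromyscus, of -8.29 in the monogamous and 1.35 in the nonmonogamous species. For ENSRNOP00000039048 the values were 0.56 and -0.59. For ENSRNOP00000058593 they were 0.54 and -0.05, the latter near 0. Each value rests on 1 library per species.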

How the results depend on the processing

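Fits kept 0 calls under every scaling, filter and choice of IDs tried, without the block and in limma-voom. DESeq2's Wald test called 537 of the 9375 IDs, with 1563 at unadjusted p under 0.05 (735 higher in voles). Without the block 285 of the IDs under 0.05 were higher in voles, against 174 with it. The genus share of variance was 37.07% with DESeq2 size factors, 36.88% with upper-quartile scaling, 36.74% on the reads behind the RPM scale and 37.09% with a prior count of 8. With at least 50 counts in every library it was 37.68%, r between mating systems was 0.096 and 30 IDs (61 before) had an 8-fold gap towards voles.

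The tertile with the highest mean, refitted alone, has fewer IDs by construction. It held 155 IDs under 0.05 (63 higher in voles), 2-fold differences at 296 IDs higher in voles and 488 in Peromyscus mice, and no overlap at 704 and 648. There were 1 and 8 IDs with 8-fold gaps, and 838 with a genus difference above both within-genus differences. Equal signs were 59.9%, r was 0.106 and the genus share 37.23%.

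With unlisted IDs taken as 0, more IDs enter (16909). Under 0.05 there were 245 (90 higher in voles). Those 2-fold higher numbered 6133 in voles and 4254 in Peromyscus mice, those without overlap 3993 and 2647, and 8-fold gaps 1318 and 384. The genus difference exceeded both within-genus differences at 4008 IDs, equal signs were 51.5%, r was 0.070 and the genus share 36.48%. The median difference over all IDs was then 0.22. The cause of these shifts beyond the added IDs was not tested.

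Leaving out 1 library removes the block, and the lone library is assumed to vary like the other genus. IDs under 0.05 then ran from 450 (without P. maniculatus) to 1239 (without M. pennsylvanicus), with 846 without M. ochrogaster, and those higher in voles from 239 to 430. With 3 libraries, non-overlap is by construction more frequent: 3289 to 3570 IDs higher in voles and 2944 to 3369 in Peromyscus mice, and 8-fold gaps 145 to 396 and 200 to 533. Counts of IDs listed for 1 genus only also rise by construction. Those for voles ran from 1321 (without M. ochrogaster) to 3237 (without M. pennsylvanicus). Those for Peromyscus ran from 304 (without P. maniculatus) to 1512 (without M. ochrogaster). Measures over mating systems and variance shares need all 4 libraries and were not run. Of IDs listed for 1 genus, 75 (voles) and 44 (Peromyscus) had 10 RPM or more in both libraries, and 1868 and 287 were absent or under 1 RPM in the other genus. The 4 IDs named for their gaps kept their direction in every fit that held them. DESeq2 called all 4, with adjusted p of 3.8e-21 for ENSRNOP00000006607, where the other fits gave 0.333 to 1. The block of the reported fit pairs species of the 2 genera by mating system, and the fit without it had 571 IDs under 0.05 against 395. The labels carry no replicate numbers. The other pairing of species across genera was described by its signs and r, and no test used it as block. Without M. ochrogaster the 2-fold counts of the lowest tertile were 943 and 962 (1174 and 673 with it), an alternative chosen after seeing the data.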
